A study of Mus musculus with 87 samples.

Results

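Gm12216, Neat1, AU020206, Gm10863, Adap2os and Adap2 were followed in mouse ventral midbrain after injection of interferon-gamma (IFN-γ). These 6 genes of the 48526 in the table of sorted nuclei, and of the 48531 in the table of single nuclei, were chosen from their response to IFN-γ in these same data, as transcripts outside the usual protein-coding response genes together with Adap2, the coding neighbour of Adap2os. Their IFN-γ values, and how many of them a fit over all genes called, are therefore given as a description that supports nothing, and only comparisons that used no IFN-γ well are read as tests for them.

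The animals were wild type C57BL/6J mice that received 40 ng of IFN-γ in 400 nL of saline, or 400 nL of saline alone, on both sides of the ventral midbrain. For bulk RNA-seq, nuclei were sorted by NeuN, a neuronal nuclear protein, into NeuN+ (neuronal) and NeuN- (mostly glial) fractions at 6, 24, 48 and 72 h, giving 84 wells. Each fraction had 6 IFN-γ wells per time point and 4, 6, 4 and 4 saline wells at these times. For single-nucleus RNA-seq, nuclei of both fractions from 1 saline and 2 IFN-γ mice were profiled at 48 h (1016, 2574 and 1109 nuclei, with 0 barcodes shared between libraries). The deposit labels all wells NeuN+, so the fraction was taken from the study's well list by barcode. In saline wells Mog, a myelin gene, pooled to between 588 and 667 CPM (counts scaled to the well total in the usual way) in the NeuN- wells of each time point and to between 19.4 and 27.0 in NeuN+ wells, so the fractions differed as named while NeuN+ wells still carried some glial RNA. Depth ran from 20962 to 301445 unique molecular identifiers (UMIs) per NeuN- well and from 277113 to 1684374 per NeuN+ well. Each group drew on only a few mice, and the map from wells to mice is not stated, so p-values measure the spread between wells, which may be partly technical. IFN-γ wells at 6 and 24 h came from mice that differed in sex-linked genes (Xist 4087 and 166 CPM pooled over NeuN- wells). Time and mouse therefore cannot be told apart. At 6 h the treatments differed too. The sex-linked gene Eif2s3y pooled to 133 CPM in NeuN- saline and 1.37 in NeuN- IFN-γ wells, and to 73.6 and 0.857 in NeuN+ wells. Treatment and mouse sex cannot be told apart at that time.

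IFN-γ acts through a cell surface receptor on gene expression in the nucleus. First-wave genes such as Irf1 carry gamma-activated sites (GAS), and the product of Irf1, interferon regulatory factor 1, acts at interferon-stimulated response elements (ISRE) of later genes. Long noncoding RNAs are transcribed like messengers and often stay in the nucleus, so nuclear RNA-seq catches them well. Neat1 is the architectural RNA of paraspeckles, nuclear bodies that hold RNA-binding proteins. Adap2 encodes an ArfGAP protein with PH domains that acts on the small GTPase ARF6.

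The members sit at 5 loci of the GRCm38 genome. Gm12216 (ENSMUSG00000081769.8, chr11:53783418-53859256, minus strand) lies beside Irf1 (ENSMUSG00000018899.16, chr11:53770014-53778374, plus strand), and their starts are 89.2 kb apart. The GENCODE vM21 annotation gives Gm12216 the type protein-coding, with 4 protein-coding and 3 processed transcripts, so it is not called noncoding below. Neat1 (ENSMUSG00000092274.2, chr19:5824708-5845478, minus) and AU020206 (ENSMUSG00000097415.2, chr7:75769038-75782099, minus) are annotated as long intergenic noncoding RNAs. Gm10863 (ENSMUSG00000075555.11, chr15:79166041-79227524, plus) is a processed transcript whose start lies 0.801 kb from that of Sox10, the oligodendrocyte lineage transcription factor gene on the opposite strand (ENSMUSG00000033006.9, chr15:79154908-79165240). Adap2os (ENSMUSG00000086507.1, chr11:80158861-80177629, minus) is antisense and lies wholly within Adap2 (ENSMUSG00000020709.15, chr11:80154105-80178958, plus). Whether strand was used in counting is not given in the sources used here, so reads of Adap2 and Adap2os cannot be told apart.

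Promoter sequences were taken from RefSeq (GRCm38.p6), from 250 bases before to 50 bases after the gene start, and matched 4 of the 6 members (not Neat1 or Adap2os). The promoters of Gm12216 and its neighbour Irf1 are shown because both hold a GAS match. Those of Gm10863 and AU020206 are shown because the groups of these genes overlapped at 6 h in both fractions. The groups of Gm10863 were apart from 24 h on, and those of AU020206 only in NeuN+ wells at 24 h. Capitals mark matches to GAS (TTCNNNGAA) or ISRE (GAAA, 2 further bases, then GAAA again), searched on both strands, and the 2 motifs do not overlap here. The windows are chr11:53859207-53859506 (minus) for Gm12216, chr11:53769764-53770063 (plus) for Irf1, chr15:79165816-79166115 (plus) for Gm10863 and chr7:75782071-75782370 (minus) for AU020206.
Gm12216: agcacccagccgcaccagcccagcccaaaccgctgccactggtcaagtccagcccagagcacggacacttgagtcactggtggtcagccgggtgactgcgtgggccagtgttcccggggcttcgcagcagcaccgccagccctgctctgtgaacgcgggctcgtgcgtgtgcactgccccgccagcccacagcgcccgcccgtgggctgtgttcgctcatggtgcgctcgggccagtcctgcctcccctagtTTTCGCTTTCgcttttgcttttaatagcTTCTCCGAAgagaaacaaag
Irf1: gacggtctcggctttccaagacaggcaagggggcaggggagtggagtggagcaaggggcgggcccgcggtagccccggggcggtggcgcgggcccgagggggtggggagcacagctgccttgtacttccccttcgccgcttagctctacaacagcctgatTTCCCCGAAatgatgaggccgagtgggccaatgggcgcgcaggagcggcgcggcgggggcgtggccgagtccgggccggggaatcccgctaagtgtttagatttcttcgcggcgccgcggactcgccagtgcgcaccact
Gm10863: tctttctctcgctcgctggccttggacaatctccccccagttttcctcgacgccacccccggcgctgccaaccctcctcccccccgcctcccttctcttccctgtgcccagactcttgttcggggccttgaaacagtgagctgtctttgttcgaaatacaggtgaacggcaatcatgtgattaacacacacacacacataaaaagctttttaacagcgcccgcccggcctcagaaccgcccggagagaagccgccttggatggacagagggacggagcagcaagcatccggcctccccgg
AU020206: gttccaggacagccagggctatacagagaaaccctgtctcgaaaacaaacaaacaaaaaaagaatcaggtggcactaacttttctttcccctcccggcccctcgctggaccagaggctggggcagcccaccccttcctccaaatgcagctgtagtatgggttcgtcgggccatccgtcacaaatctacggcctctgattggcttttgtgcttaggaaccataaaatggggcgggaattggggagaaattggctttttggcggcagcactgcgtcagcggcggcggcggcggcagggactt
In Gm12216 an ISRE match on the reverse strand began 2 bases after the gene start and a GAS match began 30 bases after it. In Irf1 a GAS match began 90 bases before the start. Of 32851 mouse promoter windows of this length, 8.30% held the GAS letters, 3.44% the ISRE letters and 0.454% both. Gm10863, AU020206, Adap2 and a second Irf1 promoter held neither, which says only that these letters are absent from the window.

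Gm12216 stood far above its saline level in NeuN- wells within 6 h of IFN-γ. At 6 h the saline wells were at 0, 0, 0 and 0 CPM, and the IFN-γ wells ranged from 158 to 191 with a median of 172. Every IFN-γ well lay above every saline well, on 125 counts against 0. Taking a floor of 3 counts over the saline group, IFN-γ wells were at least 26.2-fold higher. At 24 h saline wells ranged from 0 to 14.4 (median 0) and IFN-γ wells from 76.7 to 279.7 (median 160.2), again without overlap. By 48 h saline wells stood at 0, 8.42, 0 and 0 CPM, and IFN-γ wells ranged from 0 to 34.1 with a median of 20.8. At 72 h saline wells stood at 7.19, 0, 0 and 6.61 and IFN-γ wells ranged from 0 to 36.3 with a median of 13.7. The groups overlapped at both late times, though 5 of 6 IFN-γ wells lay above every saline well at each. Pooled levels were 19.3 against 2.03 CPM at 48 h and 14.3 against 3.74 at 72 h.

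NeuN+ wells had a Gm12216 level under saline as well. At 6 h the saline wells were at 3.61, 8.21, 8.84 and 3.22 CPM, and IFN-γ wells ranged from 15.6 to 32.6 with a median of 19.1. At 24 h saline wells ranged from 2.51 to 8.31 (median 6.99) and IFN-γ wells from 23.4 to 36.0 (median 27.4). All IFN-γ wells were above all saline wells at both times, by 3.44- and 4.43-fold in pooled CPM. At 48 h saline wells were at 5.97, 4.30, 8.41 and 6.16 and IFN-γ wells ranged from 4.39 to 14.5 (median 7.26), and at 72 h saline wells were at 8.71, 4.62, 7.35 and 2.38 and IFN-γ wells ranged from 4.42 to 11.5 (median 8.37). These late groups overlapped, with pooled levels of 7.03 against 6.05 and 8.02 against 5.36 CPM.

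**Figure D1:**
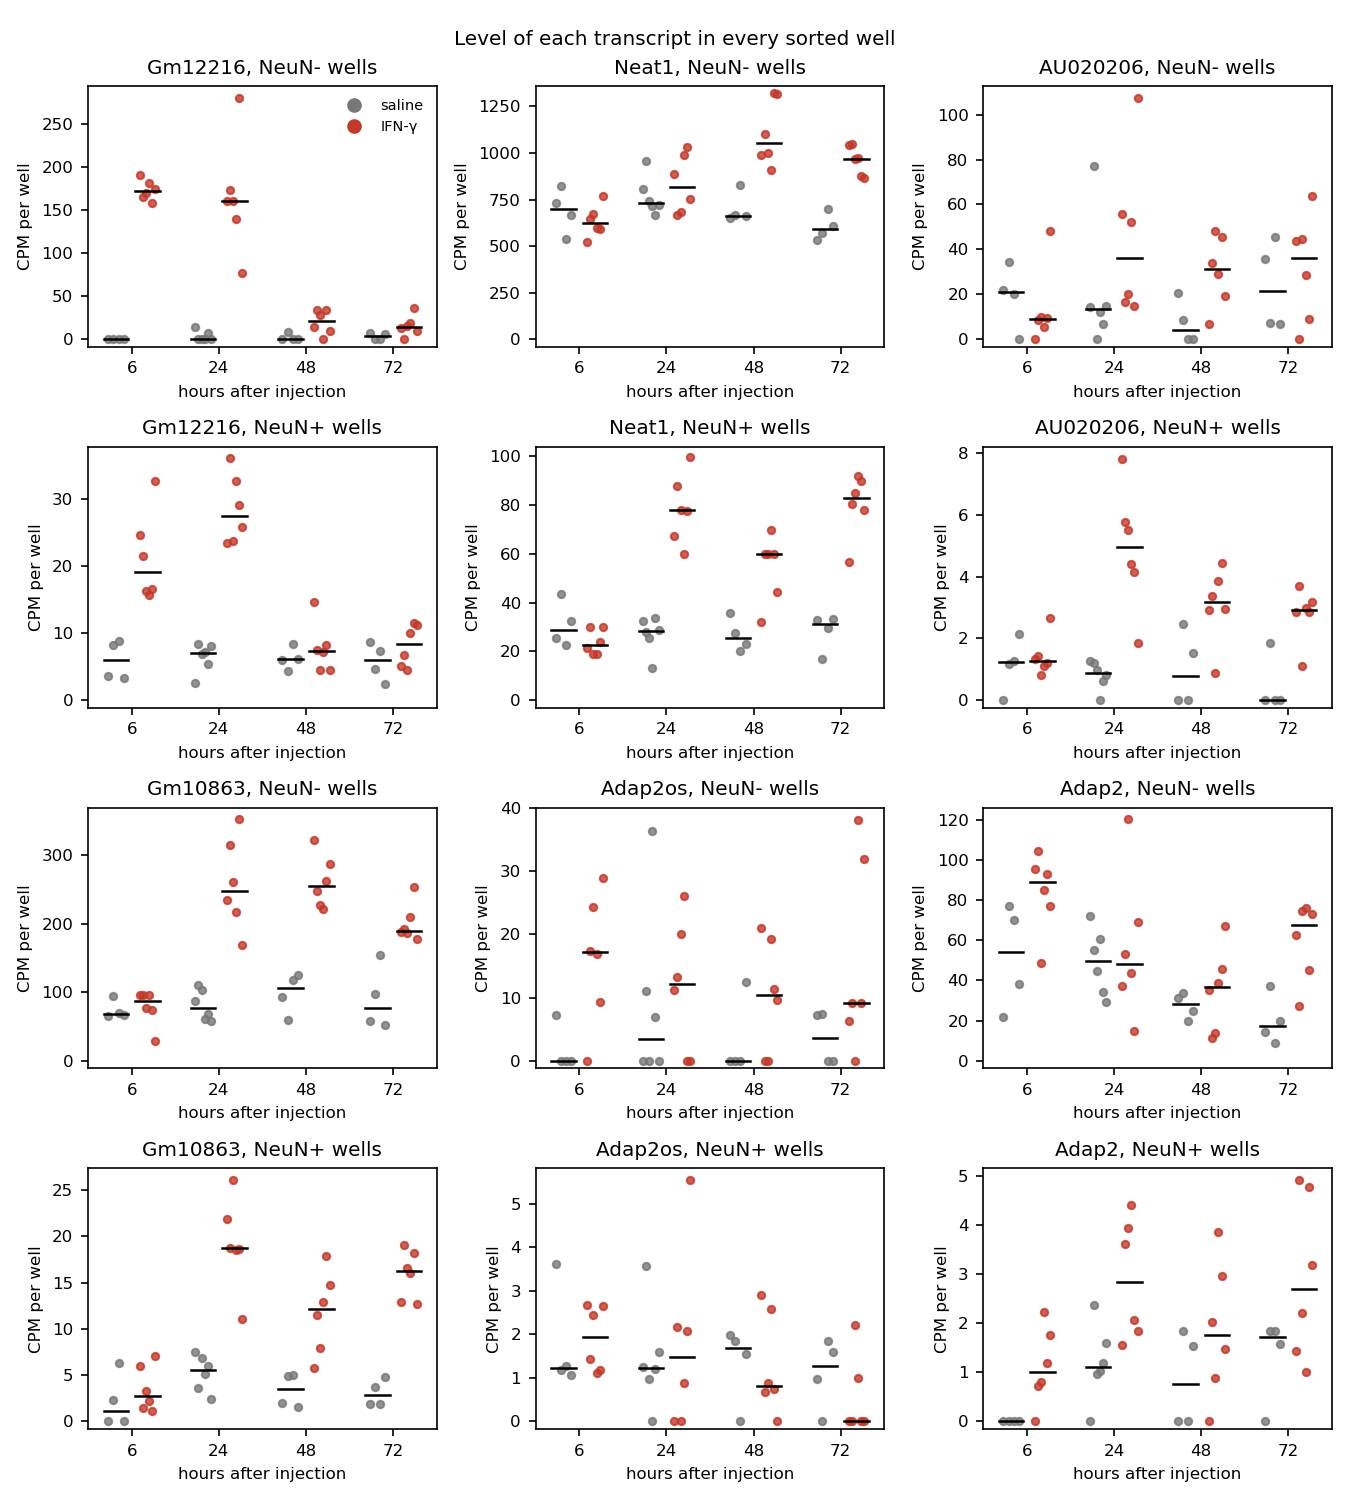
Level of each of the 6 genes in every well (CPM, linear axis from 0) against time after injection in h, with a panel per gene and fraction. Points are wells (grey saline, red IFN-γ) and bars are group medians. Gm12216 is highest at 6 and 24 h. By 48 h it is near saline in NeuN+ wells, while in NeuN- wells 5 of 6 IFN-γ wells still lie above every saline well. Gm10863 is raised from 24 to 72 h.

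Irf1, the coding neighbour of Gm12216, had at most 1 count per NeuN- saline group. In NeuN- IFN-γ wells it pooled to 390.3, 228, 28.2 and 17.9 CPM at 6, 24, 48 and 72 h, and in NeuN+ wells to 37.0, 38.6, 2.14 and 1.38. Irf1 rose at 6 and 24 h in both fractions. Its log2 fold changes were 6.88 (SE 0.43, adjusted p = 9.43e-16) and 6.25 (SE 0.62, adjusted p = 1.83e-09) in NeuN- wells, by the edgeR quasi-likelihood test adjusted over all genes. In NeuN+ wells they were 6.24 (SE 0.51, adjusted p = 1.11e-10) and 5.94 (SE 0.37, adjusted p = 4.47e-12) by the same test. Where saline is at or near 0 these fitted changes depend on the prior count. Irf1 was a known response gene when Gm12216 was chosen beside it, and its counts came almost only from IFN-γ wells. Its values, p-values included, are therefore description. Gm12216 and Irf1 were not in a fixed ratio. In NeuN- IFN-γ wells there were 0.439, 0.695, 0.684 and 0.800 Gm12216 counts per Irf1 count at the 4 times, and in NeuN+ IFN-γ wells 0.587, 0.760, 3.29 and 5.80. In NeuN+ saline wells, at 24, 48 and 72 h, Gm12216 counts outnumbered those of Irf1 by 49 to 4, 24 to 4 and 21 to 5.

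Neat1 was high in NeuN- wells, and its groups were apart only late. In NeuN- wells at 6 h the saline wells were at 733, 822, 539.8 and 668 CPM, and IFN-γ wells ranged from 525 to 772 with a median of 622. By 24 h the saline wells ranged from 665 to 959 (median 729.9) and IFN-γ wells from 667 to 1030.5 (median 819.8). The groups overlapped at both times. At 48 h saline wells were at 653, 666, 826 and 662 and IFN-γ wells ranged from 906 to 1320.3 with a median of 1052. At 72 h saline wells were at 532, 573, 699 and 608 and IFN-γ wells ranged from 866 to 1051 with a median of 969.8. At these late times every IFN-γ well lay above every saline well, but the pooled folds of 1.57 and 1.60 were below the fold needed for a call.

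In NeuN+ wells the Neat1 level was lower and its relative difference larger. At 6 h saline wells were at 25.3, 43.4, 22.7 and 32.2 CPM, and IFN-γ wells ranged from 18.7 to 30.1 (median 22.5), with overlap. At 24 h saline wells ranged from 13.3 to 33.6 (median 28.4) and IFN-γ wells from 59.9 to 99.6 (median 77.9). At 48 h saline wells were at 35.8, 27.7, 20.2 and 23.1 and IFN-γ wells ranged from 32.0 to 69.6 (median 59.9). Groups were apart at 24 h, while at 48 h the lowest IFN-γ well lay below the highest saline well. At 72 h saline wells were at 32.9, 16.6, 29.4 and 33.3 and IFN-γ wells ranged from 56.6 to 91.9 (median 82.7), without overlap. Pooled folds at the 4 times were 0.745, 2.82, 2.30 and 2.81. Because Neat1 was a glial transcript here, oligodendrocyte RNA in NeuN+ wells was measured beside it. The 8 oligodendrocyte markers summed to medians of 390.1 CPM (saline) and 308 (IFN-γ) at 24 h, 327 and 429 at 48 h, and 396 and 706 at 72 h. Of these markers 6, 7 and 7 were tested and 0 were called, beside 1.73%, 0.169% and 0.766% of all tested genes. Their part in the Neat1 difference was not tested.

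Gm10863, which starts beside Sox10, stood apart from 24 h on. In NeuN- wells at 6 h the saline wells were at 65.3, 94.2, 70.0 and 66.8 CPM, and IFN-γ wells ranged from 28.9 to 96.1 with a median of 86.5, so the groups overlapped. At 24 h saline wells ranged from 58.6 to 110.3 (median 77.6) and IFN-γ wells from 169 to 353 (median 248). At 48 h saline wells were at 93.3, 59.0, 118 and 125 and IFN-γ wells ranged from 222 to 322 (median 255). At 72 h saline wells were at 57.5, 96.7, 154 and 52.9 and IFN-γ wells ranged from 178 to 254 (median 189.9). At 24, 48 and 72 h all IFN-γ wells were above all saline wells, with pooled folds of 3.23, 2.76 and 2.29 against 1.05 at 6 h.

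The same pattern was seen in NeuN+ wells at a lower Gm10863 level. At 6 h saline wells were at 0, 2.34, 6.31 and 0 CPM and IFN-γ wells ranged from 1.18 to 7.06 (median 2.74), with overlap. After 24 h saline wells ranged from 2.41 to 7.53 (median 5.56) and IFN-γ wells from 11.1 to 26.0 (median 18.7). At 48 h saline wells were at 1.99, 4.92, 5.05 and 1.54 and IFN-γ wells ranged from 5.81 to 17.8 (median 12.2). The IFN-γ wells were above all saline wells at both times. At 72 h saline wells were at 1.93, 3.70, 1.84 and 4.76 and IFN-γ wells ranged from 12.7 to 19.0 (median 16.3), also without overlap. Pooled folds were 1.51, 3.98, 3.11 and 4.79 at the 4 times. The oligodendrocyte marker values of NeuN+ wells given above for Neat1 apply equally here, and their part was not tested.

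Sox10 was set beside Gm10863 because the 2 gene starts face away from each other. In NeuN- wells Sox10 pooled to 60.9, 64.9, 87.2 and 59.8 CPM after saline and to 71.2, 42.8, 89.2 and 70.4 after IFN-γ. Gm10863 counts per Sox10 count were 1.21, 1.24, 1.09 and 1.44 after saline and 1.10, 6.05, 2.95 and 2.80 after IFN-γ, so the ratio was higher after IFN-γ from 24 h on. Sox10 was tested in NeuN- wells only at 48 h and did not pass (log2 fold change 0.05, SE 0.30, adjusted p = 0.963, edgeR). At 24 h the summed oligodendrocyte markers of NeuN- wells were at medians of 8102 CPM after saline and 2869.8 after IFN-γ, with 7 of 7 tested markers lower. In bulk wells, fewer cells of a type and less RNA per cell cannot be told apart. At 24 h Gm10863 was thus higher in the wells where the oligodendrocyte markers were lower. At 6 h the marker medians were 8341 CPM after saline and 5002 after IFN-γ, and the Gm10863 groups overlapped. They were 8709 and 7886 at 48 h and 8528 and 8428 at 72 h, where the Gm10863 groups were apart. The part of cell composition in Gm10863 was not tested.

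**Figure D2:**
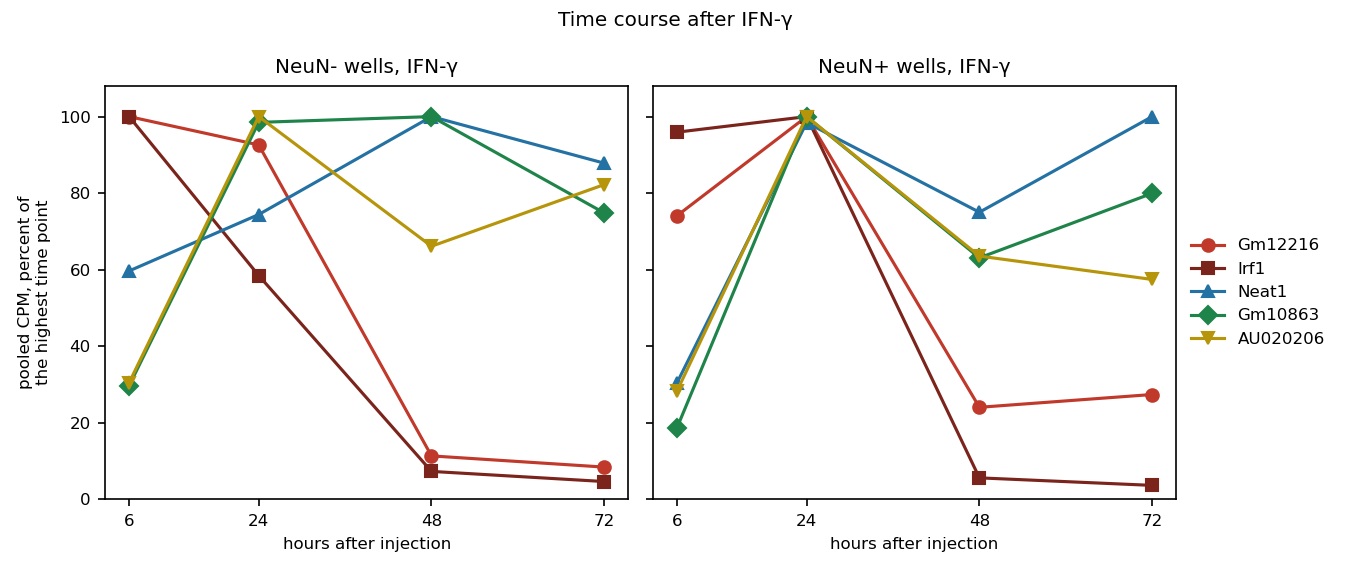
Pooled CPM of Gm12216, Irf1, Neat1, Gm10863 and AU020206 in IFN-γ wells, as a percentage of each gene's own highest time point (y axis) against time in h (x axis), with a panel per fraction. Gm12216 falls with Irf1 to 11.3% in NeuN- wells at 48 h, while Gm10863 and Neat1 stand at 100% there.

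Levels over time in NeuN- IFN-γ wells were set against each gene's own highest pooled level. Gm12216 was at 100%, 92.6%, 11.3% and 8.36% at 6, 24, 48 and 72 h, beside 100%, 58.4%, 7.24% and 4.59% for Irf1. Gm10863 was at 29.7%, 98.5%, 100% and 74.8%, Neat1 at 59.6%, 74.4%, 100% and 87.8%, and AU020206 at 30.4%, 100%, 66.1% and 82.2%. Gm12216 was thus highest early, and these 3 were lowest at 6 h. Adap2 (100%, 64.5%, 43.8% and 79.5%) and Adap2os (100%, 61.4%, 54.3% and 87.1%) followed neither course. In NeuN+ wells Gm12216 was at 74.1%, 100%, 24.0% and 27.3%, Gm10863 at 18.7%, 100%, 63.1% and 79.9%, and Neat1 at 30.4%, 98.4%, 75.0% and 100%. Pooled Xist in NeuN- IFN-γ wells was 4087, 166, 5063 and 141 CPM at the 4 times, so the mice differed between times.

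AU020206 had few counts, and its groups were apart only in NeuN+ wells at 24 h. In NeuN+ wells at 24 h the saline wells ranged from 0 to 1.25 CPM (median 0.888) and IFN-γ wells from 1.84 to 7.82 (median 4.96). All IFN-γ wells were above all saline wells, by 6.23-fold, on 30 counts against 6. At 6 h the pooled fold was 1.02, and at 48 h it was 2.55 with overlap. At 72 h saline wells were at 0, 1.85, 0 and 0 and IFN-γ wells ranged from 1.10 to 3.68 (median 2.93), so 1 saline well lay within the IFN-γ range. In NeuN- wells the counts were 10 against 9, 42 against 11, 20 against 5 and 31 against 12 (IFN-γ against saline), and the pooled folds 0.699, 2.14, 2.93 and 1.65. The NeuN- groups overlapped at every time point. The microglial marker sums of NeuN- wells given below for Adap2 apply here too, and their part was not tested. At 24 h, for example, NeuN- saline wells ranged from 0 to 77.2 CPM (median 13.3) and IFN-γ wells from 14.7 to 107 (median 36.1).

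Adap2 and Adap2os were called in no comparison of IFN-γ with saline, under any setting that tested them, so they are not described as induced. Adap2 in NeuN- wells at 6 h was at 21.8, 77.1, 70.0 and 38.2 CPM after saline, and after IFN-γ it ranged from 48.5 to 105 with a median of 88.8. After 24 h saline wells ranged from 29.3 to 72.1 (median 49.8) and IFN-γ wells from 14.7 to 121 (median 48.3). At 48 h saline wells were at 31.1, 33.7, 19.7 and 25.0 and IFN-γ wells ranged from 11.3 to 66.9 (median 36.8). The widest gap was at 72 h. Saline wells were then at 14.4, 37.2, 9.08 and 19.8 and IFN-γ wells ranged from 27.4 to 76.3 (median 67.8), a pooled fold of 3.02 after 1.56, 1.06 and 1.21 at the earlier times. Groups overlapped at every time. In NeuN- wells the microglial markers summed to medians of 687, 682, 769 and 584 CPM after saline at 6, 24, 48 and 72 h. After IFN-γ they summed to 157, 458, 470 and 779. The markers were higher after IFN-γ only at 72 h, and their part in the Adap2 level was not tested. NeuN+ wells held 7, 19, 15 and 22 Adap2 counts after IFN-γ and 0, 10, 4 and 5 after saline.

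Adap2os was near the limit of detection. NeuN- wells held 14, 11, 7 and 14 counts after IFN-γ and 1, 5, 1 and 2 after saline at the 4 times. The IFN-γ wells ranged from 0 to 38.1 CPM over these times and overlapped with saline at each of them. NeuN+ wells held 14, 9, 8 and 3 counts after IFN-γ and 4, 12, 5 and 4 after saline. These counts were below the filter of edgeR, and neither DESeq2 nor edgeR without the filter called Adap2os in a comparison with IFN-γ.

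A call needed a log2 fold change past 1 with an adjusted p under 0.01 by edgeR, among genes that passed the filter on low counts. In NeuN- wells 1 of 3 members tested was called higher at 6 h (Gm12216), where 11.7% of all tested genes were called in either direction. At 24, 48 and 72 h it was 1 of 2 each time (Gm10863), beside 14.6%, 1.4% and 1.13% of all tested genes. In NeuN+ wells 1 of 2 members was called at 6 h (Gm12216), 3 of 3 at 24 h (Gm12216, Neat1 and Gm10863), 1 of 2 at 48 h (Neat1) and 2 of 2 at 72 h (Neat1 and Gm10863). The shares of all tested genes there were 1.37%, 1.73%, 0.169% and 0.766%. No member was called lower. Without saline replicate 1 or 4 the call of Gm10863 in NeuN- wells at 72 h was lost, and without saline replicate 4 that of Gm12216 in NeuN+ wells at 6 h, which left 0 members called. Since the members were picked on this response, nothing is read from these counts. A member low after saline passed the filter only through its IFN-γ wells, and the members left untested were not thereby unchanged.

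The IFN-γ wells were wholly above the saline wells for 1, 2, 2 and 2 members in NeuN- wells, where 10.8%, 11.8%, 3.78% and 2.67% of tested genes did so. In NeuN+ wells this held for 1, 4, 1 and 2 members, beside 6.23%, 3.06%, 0.937% and 4.63%. These member counts are over all 6, tested or not, whereas the shares are over tested genes. The fitted log2 fold changes of the called members, again as description, were 7.34 (SE 0.66) for Gm12216 in NeuN- wells at 6 h, a value that depends on the prior count. In NeuN+ wells Gm12216 had 1.71 (SE 0.34) at 6 h and 2.16 (SE 0.22) at 24 h. Neat1 had 1.55 (SE 0.16), 1.18 (SE 0.18) and 1.46 (SE 0.17) in NeuN+ wells from 24 to 72 h. Gm10863 had 1.56 (SE 0.24), 1.48 (SE 0.22) and 1.16 (SE 0.24) in NeuN- wells from 24 to 72 h, and 1.99 (SE 0.25), 1.64 (SE 0.37, not called) and 2.19 (SE 0.33) in NeuN+ wells. At 24 h only 2 of the 6 saline wells per fraction matched the IFN-γ wells in low Xist. Against those 2 wells alone, a choice made after seeing the data, the log2 fold changes were 4.73 for Gm12216 and 1.84 for Gm10863 in NeuN- wells, and 2.17, 2.17 and 1.34 for Gm12216, Gm10863 and Neat1 in NeuN+ wells.

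Single nuclei placed the members in cell classes at 48 h. Clusters were named from fixed markers as oligodendrocyte-like (1241 nuclei), astrocyte-like (193), microglia-like (134), dopamine neuron-like (397), GABA neuron-like (1118) and VGLUT2 neuron-like (1127), and 489 were left unnamed. MHC class II genes were among the leading genes of the microglia-like cluster. Values are in CPM of the UMIs summed over a class in a mouse, and intervals are exact Poisson intervals at 95% that cover counting error only. With 1 saline mouse there is no replicate check and no test.

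Neat1 and Gm10863 were oligodendrocyte transcripts in every library. Oligodendrocyte-like nuclei held 94.2%, 96.4% and 96.5% of all Neat1 UMIs in the saline mouse and IFN-γ mice 1 and 2, and 91.4%, 98.6% and 96.4% of Gm10863 UMIs. Gm10863 there was at 107 CPM (83.7 to 134) in the saline mouse, 375 (352 to 399) in IFN-γ mouse 1 and 299.9 (272 to 329.5) in mouse 2. Both IFN-γ intervals lay above that of the saline mouse, at 3.52 and 2.81 times its level. Sox10 in the same nuclei was at 329.7, 234 and 299.9 CPM, 0.709 and 0.910 times saline. Neat1 was at 1614, 2914 and 3562 CPM, or 1.81 and 2.21 times saline. Oligodendrocyte-like nuclei fell into different clusters by mouse, with cluster 0 holding 1, 482 and 194 nuclei, cluster 2 holding 73, 236 and 107, and cluster 10 holding 117, 26 and 5. Members were kept out of the genes used for clustering. Neat1 and Gm10863 were nevertheless among the 10 leading genes of cluster 0, as were the IFN-γ response genes Iigp1, Tgtp2 and Irgm2, so the division into clusters itself follows the response. Within cluster 2, Gm10863 was at 135, 148 and 132 CPM and Neat1 at 1572, 2131 and 2517. Within cluster 10, Gm10863 was at 82.9, 84.1 and 135 CPM, with 7 and 2 UMIs in the IFN-γ mice. In cluster 0, which held 1 saline nucleus, Gm10863 was at 520.2 and 417 CPM in the IFN-γ mice.

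**Figure D3:**
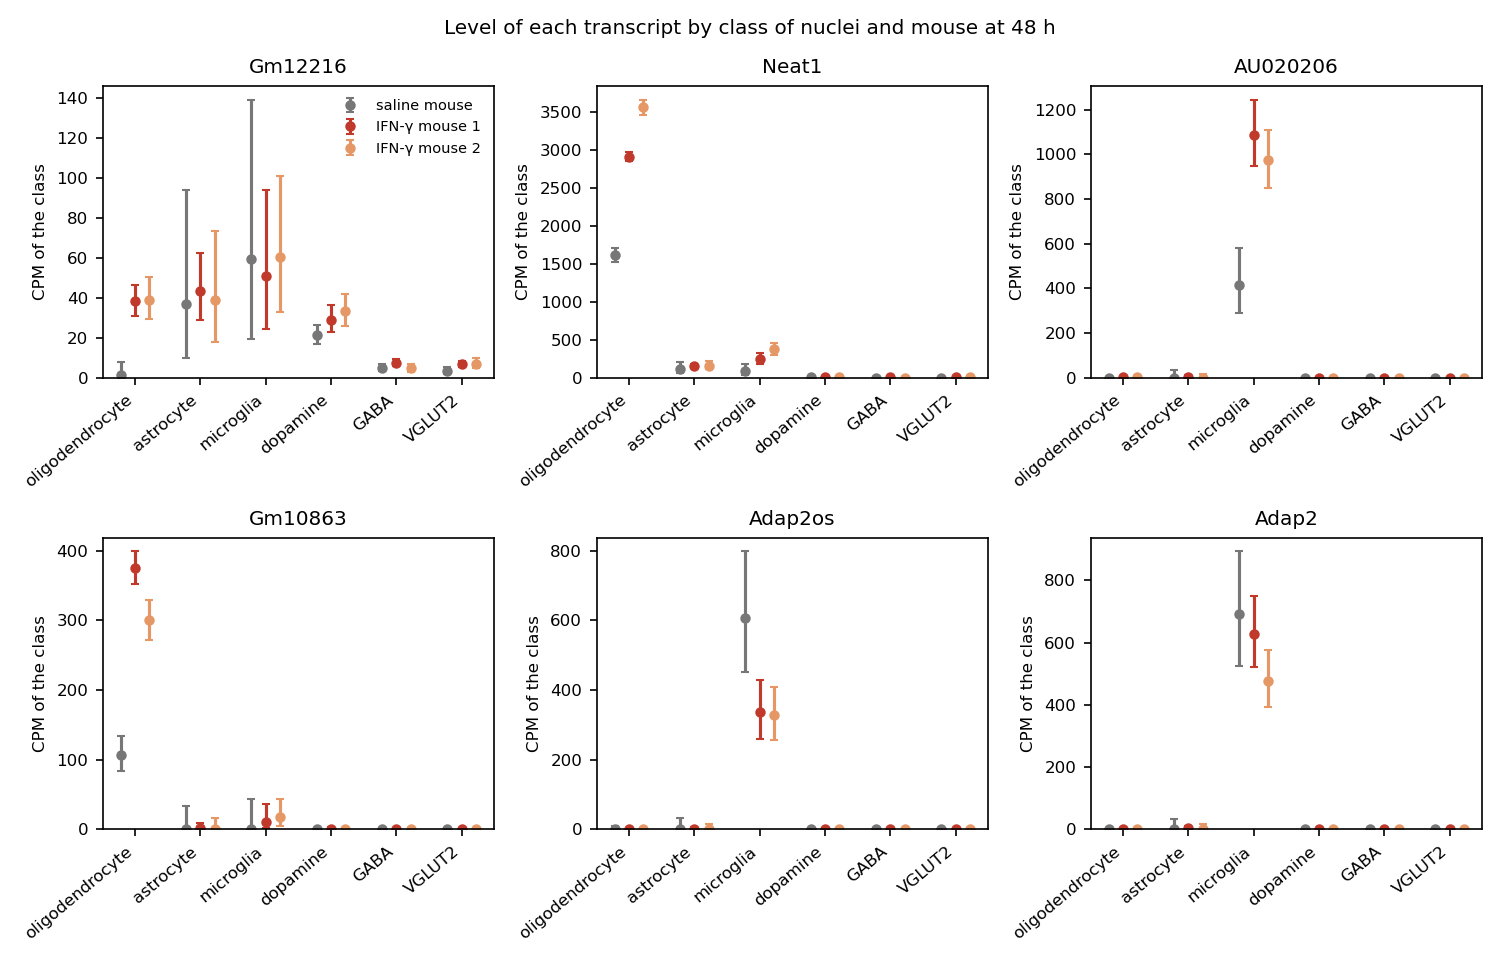
CPM of each gene per nucleus class and mouse at 48 h (saline mouse grey, IFN-γ mice in red), with exact Poisson 95% bars. Neat1 and Gm10863 are highest in oligodendrocyte-like nuclei, and AU020206, Adap2 and Adap2os in microglia-like nuclei, where AU020206, and neither Adap2 nor Adap2os, is higher in both IFN-γ mice.

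AU020206, Adap2 and Adap2os were microglial. Microglia-like nuclei held 83.3%, 89.9% and 95.4% of AU020206 UMIs, 89.2%, 87.2% and 96.5% of Adap2 UMIs, and 82.3%, 73.3% and 90.5% of Adap2os UMIs. AU020206 was at 417 CPM (290.3 to 579.6) in the saline mouse, 1087 (946 to 1244) in IFN-γ mouse 1 and 973 (850 to 1108) in mouse 2. Its IFN-γ intervals lay above the saline interval, at 2.61 and 2.33 times its level. Adap2 was at 691 (524 to 893), 628 (522 to 749) and 478 (393 to 575). Its ratios to saline were 0.909 and 0.692, and the intervals overlapped. Adap2os was at 607 (452 to 798), 337 (261 to 429) and 327 (258 to 409), at 0.555 and 0.539 times saline, with both IFN-γ intervals below that of the saline mouse. Neat1 in these nuclei was at 95.3 (41.1 to 188), 250.1 (185 to 331) and 374 (299.9 to 462), or 2.63 and 3.93 times saline. Nuclei numbered 31, 49 and 54.

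Gm12216 had a broader pattern. In the saline mouse dopamine neuron-like nuclei held 59.4% of its UMIs, at 21.3 CPM (17.1 to 26.4), beside 29.0 and 33.2 in the IFN-γ mice (1.36 and 1.56 times). This share also reflects how many nuclei and UMIs the class held. In microglia-like nuclei of the saline mouse the Gm12216 CPM was higher, but on only 5 UMIs. The IFN-γ mice there were at 0.857 and 1.01 times saline. Astrocyte-like nuclei held 4 saline UMIs of Gm12216 and were at 1.18 and 1.06 times saline. In oligodendrocyte-like nuclei Gm12216 was at 1.44 CPM (0.04 to 8.02) on 1 UMI in the saline mouse, 38.1 (31.1 to 46.3) in IFN-γ mouse 1 and 38.8 (29.3 to 50.4) in mouse 2. The share of Gm12216 UMIs in that class went from 0.699% to 27.7% and 25.7%. VGLUT2 neuron-like nuclei were at 3.51, 6.79 and 7.01 CPM (1.94 and 2.00 times saline) and GABA neuron-like nuclei at 4.76, 7.39 and 4.65. Irf1 in oligodendrocyte-like nuclei had 0 UMIs in the saline mouse and 52.2 and 66.5 CPM in the IFN-γ mice, at least 12.1- and 15.4-fold higher against a floor of 3 counts. In dopamine neuron-like nuclei Irf1 was at 3.77, 2.97 and 5.46 CPM.

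In neurons Neat1 was low, at 0.97, 5.19 and 3.92 CPM in VGLUT2 neuron-like nuclei (5, 52 and 19 UMIs), 1.53, 4.76 and 2.75 in GABA neuron-like nuclei and 8.29, 9.29 and 10.0 in dopamine neuron-like nuclei. The libraries held 191, 744 and 306 oligodendrocyte-like nuclei, and whether their free RNA gave these counts was not tested. More than 2-fold above saline in both IFN-γ mice were 3 of 4 members with enough UMIs in oligodendrocyte-like nuclei (Gm12216, AU020206 and Gm10863), where 5.98% of genes were. For AU020206 this rests on 0.5 added to 0 saline UMIs, against 15 and 6 UMIs. Against a floor of 3 counts it was at least 1.29- and 0.962-fold, so a difference past 2-fold is not shown for it. In microglia-like nuclei it held for 2 of 5 members (Neat1 and AU020206) beside 14.5% of genes, and in VGLUT2 neuron-like nuclei for 1 of 5 (Neat1) beside 2.52%. It held for 0 of 2 members in astrocyte-like nuclei (10.7% of genes), 0 of 2 in dopamine neuron-like nuclei (1.61%) and 0 of 5 in GABA neuron-like nuclei (2.2%). Nothing is read from these shares, since 48 h wells entered the choice of members.

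Saline wells allow a test that used no IFN-γ well. Neat1 ranged from 13.3 to 43.4 CPM (median 28.4) in 18 NeuN+ saline wells and from 532 to 959 (median 684) in 18 NeuN- saline wells. The wells did not overlap, and the log2 difference of NeuN+ from NeuN- was -4.64 (SE 0.089, adjusted p = 1.20e-44, edgeR with time point as covariate). Gm10863 ranged from 0 to 7.53 CPM (median 3.63) in NeuN+ and from 52.9 to 154 (median 78.3) in NeuN- wells, also without overlap, with a log2 difference of -4.37 (SE 0.21, adjusted p = 3.69e-26, edgeR). Both tested members were called, beside 40.7% of the 5699 genes tested. Sox10 was lower in NeuN+ wells by a like amount (log2 -4.67, adjusted p = 4.38e-25, edgeR). The other 4 members did not pass the filter on low counts here. In pooled CPM, NeuN- wells held 34.6 times the Adap2 level of NeuN+ wells, 19.6 times the AU020206 level and 3.25 times the Adap2os level. Gm12216 went the other way, with 6.17 CPM in NeuN+ and 2.49 in NeuN- saline wells (112 and 5 counts), and with a count in 18 of 18 NeuN+ and 5 of 18 NeuN- wells, which were shallower.

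The surroundings of each member were examined over all genes whose start lay within 250 kb. The shares of all tested genes called are those given with the members, and nothing is read from neighbours without a call. Around Gm12216, 20 genes were listed and 6 were tested in at least 1 comparison, of which Irf1 alone was called. Irf1 was a known response gene when Gm12216 was chosen beside it, so nothing is read from this call. Slc22a5, a carnitine transporter gene on the other side of Gm12216 at 32.4 kb, had log2 fold changes of 0.20, -0.16, -0.15 and -0.05 in NeuN+ wells and was not called. Around Neat1, 44 genes were listed, 10 were tested and 0 were called, and around Gm10863, 22 were listed, 7 tested and 0 called. None of the 7 neighbours of AU020206 passed the filter. Around Adap2, 12 genes were listed and 10 tested, and Rhot1, a mitochondrial transport GTPase gene 54.9 kb away, was higher in NeuN- wells at 6 h (pooled 247 against 100.1 CPM, log2 fold change 1.25, SE 0.23, adjusted p = 4.52e-05, edgeR). Against saline wells of all time points the Rhot1 value was 0.76, below the fold needed, and it was not called in the other 7 comparisons.

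**Figure D4:**
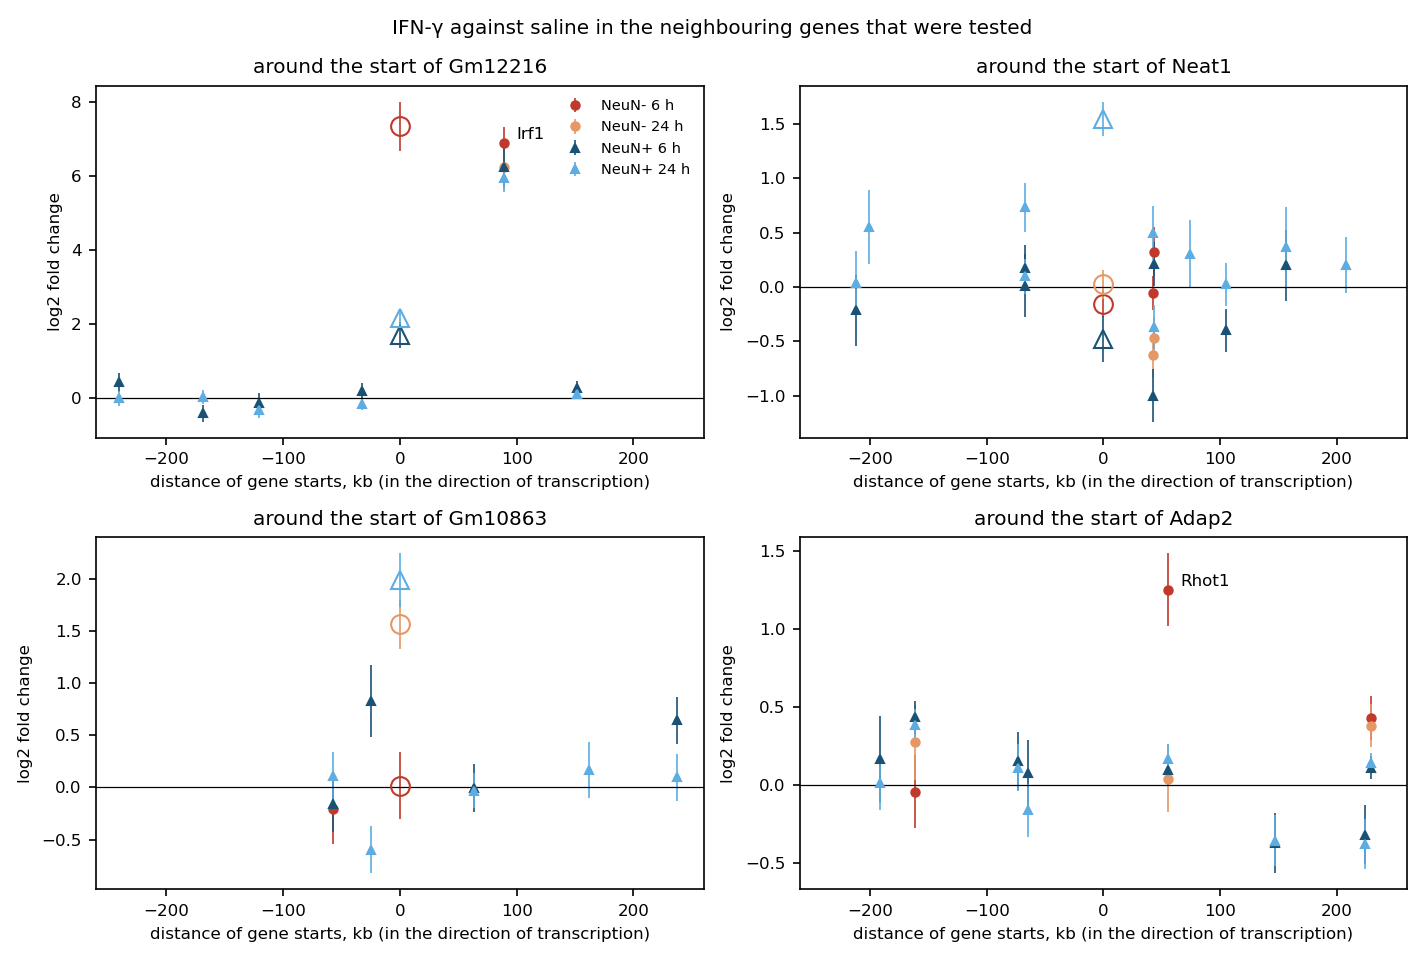
Log2 fold change of IFN-γ against saline (y axis, edgeR, bars SE) of the tested genes within 250 kb of Gm12216, Neat1, Gm10863 and Adap2, against the distance between gene starts in kb (x axis), at 6 and 24 h in both fractions. Open markers at 0 kb are the member itself. Near Gm12216, Irf1 at 89.2 kb stands far above its other neighbours, which lie near 0. Irf1 was a known response gene when Gm12216 was chosen beside it. Fitted values of genes with almost no saline counts depend on the prior count.

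Genes of the members' known pathways were read from lists. Of the IFN-γ axis list (42 receptor, signalling and target genes), edgeR called 24 of 24 tested genes higher in NeuN- wells at 6 h, 19 of 20 at 24 h, 10 of 13 at 48 h and 9 of 12 at 72 h. In NeuN+ wells these counts were 22 of 26, 22 of 25, 6 of 15 and 6 of 11, and 0 were lower. The shares of all tested genes called stand with the members above. The rest of the 42 genes were below the filter, and those near 0 after saline passed it only through their IFN-γ wells, so the counts do not cover the list. Over the tested genes alone the median log2 fold change was 4.22, 4.50, 3.81 and 3.31 in NeuN- and 3.88, 4.23, 2.07 and 2.13 in NeuN+ wells. The genes tested differed between comparisons and were in part selected by high IFN-γ wells. These medians therefore do not describe the whole list or its course over time. Of the list of 20 paraspeckle proteins, the partners of Neat1, 0 of 19 tested were called at 24, 48 and 72 h in NeuN+ wells. The shares of all tested genes called there were 1.73%, 0.169% and 0.766%. A count of 0 is near these shares, so nothing is read from it. In the IFN-γ comparisons the list gave 1 call, that of Zc3h6, a zinc finger gene. It was lower in NeuN- wells at 6 h (log2 fold change -1.28, SE 0.34, adjusted p = 0.00371, edgeR), as 1 of 14 tested beside 11.7% of all tested genes. This Zc3h6 call was lost in DESeq2 (log2 fold change -1.27, adjusted p = 0.0238), without the filter on low counts (-1.18, adjusted p = 0.0309), and without any 1 of 3 wells (saline replicate 1 or 2, or IFN-γ replicate 4).

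Of 25 other noncoding transcripts in the table, 10 to 15 were tested in the NeuN- and 22 to 24 in the NeuN+ comparisons with IFN-γ. Pvt1, a long noncoding RNA beside Myc, was the only one called there (1 of 15 at 6 h and 1 of 10 at 24 h, beside the 11.7% and 14.6% above). It rose in NeuN- wells at 6 h from 161 to 381 pooled CPM (log2 fold change 1.19, SE 0.18, adjusted p = 1.95e-06, edgeR) and at 24 h from 162 to 455 (1.38, SE 0.20, adjusted p = 1.31e-06). Levels of Malat1, and of Meg3 in NeuN+ wells, could not be read. Malat1 held 717 to 2620 counts in NeuN- and 2149 to 2687 in NeuN+ wells although well totals varied 14.4- and 6.08-fold, so its counts sat near a ceiling, as did Meg3 in NeuN+ wells (1254 to 2593 counts). Neat1, at 11 to 239 counts per NeuN- well and 7 to 131 per NeuN+ well, was far below that. Of the 22 ArfGAP genes, the family of Adap2, 6 or 7 were tested in the NeuN- and 17 or 18 in the NeuN+ comparisons with IFN-γ. Of these Arap2 alone was called, higher in NeuN- wells at 6 h (1767 against 631 pooled CPM, log2 fold change 1.41, SE 0.11, adjusted p = 1.92e-13, edgeR). That was 1 of 7 tested, near the 11.7% of all tested genes, so nothing is read about the family.

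The genes most like each member were ranked by Pearson's r of mean log2(CPM + 1) over the 16 groups of wells, among 14358 genes with at least 100 counts. These points share wells and the fraction difference, and the values are descriptions. Gm12216 was most like Rnf19b (r = 0.957), Nampt (0.945), Pim1 (0.942), Wars (0.940) and Parp10 (0.931), with Irf1 at rank 24 (0.890). Neat1 was most like Plxnb3 (0.996), followed by Gramd3, Phldb1, Wipf1 and Cdh20. Gm10863 was most like Tec (0.977), followed by Gpd2, Cd180, Entpd1 and Rfx4. AU020206 was most like Ndrg2 (0.959), Adap2 like Ppp2r5a (0.984) and Adap2os like Olfr56 (0.908).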

How the data were processed

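The sorted nuclei were profiled in wells by bulk RNA-seq with unique molecular identifiers (UMIs), and single nuclei with the 10x 3′ v3 chemistry. The authors aligned reads to GRCm 38 with STAR and Gencode vM10, merged UMIs within a Hamming distance of 1 and, for the nuclei, removed doublets. They deposited unnormalized UMI counts, so every value here is from counts per gene and well or nucleus. The labels call all wells NeuN+, and fractions came from the study's well list. The study's methods give 100 nuclei per well, while its figure legends give a larger number, and the conflict is not resolved here. The map from wells to mice is not given in the sources used here.

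Bulk comparisons used R 4.3.3, edgeR 4.0.16 (limma 3.58.1), filterByExpr, TMM factors, the quasi-likelihood F test and Benjamini-Hochberg adjustment over all tested genes, with calls at an adjusted p under 0.01 and an absolute log2 fold change over 1. CPM are counts scaled to the well total, and pooled CPM sums the wells of a group. Saline fractions were compared with time point as covariate. Alternatives were RLE factors, DESeq2 1.42.0, controls of all time points, no filter and each well or time point left out. Saline wells low in Xist, as controls at 24 h, were added after seeing the data.

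Nuclei were clustered in Python 3.11.15 (scikit-learn 1.9.0, igraph 0.11.9 and leidenalg 0.10.2, with scipy 1.17.1, pandas 2.3.3, numpy 2.4.6 and matplotlib 3.10.9) on 2000 variable genes without the members, 30 components and 15 neighbours at Leiden resolution 1, with 0.5 and 2 also tried. Names came from the highest-scoring marker list of a cluster, with a lead of 0.5, set after seeing the data, and 3 markers found in 5% of its nuclei. No other list could hold more of the cluster's 10 leading genes. A cluster with few UMIs per nucleus also needed a marker of its own list among them. The general neuron list was not counted as a rival of a neuron class. UMIs were summed per class and mouse, with at least 10 UMIs per gene and 0.5 added for ratios. The floor was 3 counts over a group, and intervals and floors cover counting error only. The edgeR fits of NeuN- wells at 6 h and of the saline fractions were tested on simulated counts.

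The 6 members, the gene lists and the neighbour window were chosen with earlier results of these data known. Named genes are the members, Irf1, called genes and the nearest coding genes within 250 kb, listed genes that were called, and the 5 genes most like each member. Sox10, Malat1, Meg3, Xist, Eif2s3y and Mog were named after their values were seen. Coordinates are from GENCODE vM21.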

Additional observations from a re-analysis of the deposited data

Results flagged for a closer look

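Over 94 groups of 4 to 6 wells, 15 held a well farther from the others than Dixon's 95% limit allows. For normal values chance gives about 1 in 20. That rate does not hold for low counts, where 1 count in a single well of a group passes the limit, so no excess is read. Neat1 had 1 high NeuN- saline well at 48 h (826 CPM on 84 counts, next 666). Gm10863 had a high NeuN- saline well at 6 h (94.2 CPM, 11 counts) and a low NeuN- IFN-γ well at 6 h (28.9 CPM, 3 counts). Gm12216 had a high NeuN+ IFN-γ well at 48 h (14.5 CPM, 5 counts) and 1 count (8.42 CPM) in a single NeuN- saline well at 48 h.

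The remaining wells rest on 7 counts or fewer. For AU020206 these were high wells at 48.2 CPM (NeuN- IFN-γ, 6 h), 77.2 CPM (NeuN- saline, 24 h), 2.65 CPM (NeuN+ IFN-γ, 6 h) and 1.85 CPM (NeuN+ saline, 72 h), and a low well at 1.10 CPM (NeuN+ IFN-γ, 72 h). For Adap2os they were high saline wells at 36.4 CPM (NeuN-, 24 h), 12.5 CPM (NeuN-, 48 h), 7.25 CPM (NeuN-, 6 h) and 3.61 CPM (NeuN+, 6 h). Adap2 had 1 NeuN+ saline well at 0 CPM at 72 h.

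In single nuclei at 48 h, with 0.5 added to counts, some genes had log2 ratios of opposite sign between classes in both IFN-γ mice. With 1 saline mouse this difference was not tested. Gm12216 had a mean log2 ratio to saline of -0.18 in microglia-like nuclei, and of 4.16 in oligodendrocyte-like, 0.54 in dopamine neuron-like and 0.95 in VGLUT2 neuron-like nuclei. Without the 0.5 added to counts, Gm12216 in microglia-like nuclei was at 0.857 and 1.01 times saline, so its direction there differed between the mice. Adap2 had -0.34 in microglia-like and -0.72 in VGLUT2 neuron-like nuclei, and 1.41 in GABA neuron-like nuclei. In the saline mouse and IFN-γ mice 1 and 2 it held 4, 5 and 2 UMIs in VGLUT2 neuron-like nuclei. In GABA neuron-like nuclei it held 1, 10 and 2. The neuron values rest on these few UMIs and the 0.5 added, so no direction is read from them.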

How the results depend on the processing

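Across the alternatives, 0 of the called member fold changes changed sign. Some near 0 that were not called did, with Gm10863 in NeuN- wells at 6 h at a log2 of 0.018 and at -0.14 with saline wells of all time points, and Neat1 in NeuN- wells at 24 h between -0.041 and 0.14 over fits without 1 well. Of 933 values of other named genes 923 kept their call and direction, while 10 lost the call (of Rhot1, Zc3h6 and Hnrnpk). In NeuN- wells at 24 h, 2 members were called instead of 1 with DESeq2, without the filter and with low-Xist saline wells (the last added after seeing the data), since Gm12216 was then called as well; leaving out 1 well gave 1 to 2. Leaving out 1 well gave 0 to 1 in NeuN- wells at 72 h, where Gm10863 was lost without saline replicate 1 or 4, and 0 to 1 in NeuN+ wells at 6 h, where Gm12216 was lost without saline replicate 4. In other bulk comparisons with IFN-γ, leaving out 1 well left the number of members called as it was.

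Between saline fractions 2 members were called by edgeR, 5 by DESeq2, 4 without the filter and 3 without the 6 h wells, where Adap2 (log2 -4.63) was added. DESeq2 added Adap2 (log2 -5.09), AU020206 (-4.17) and Adap2os (-1.73). Gm12216 was not called in either setting (adjusted p = 0.0556 in DESeq2 and 0.0147 in edgeR without the filter). AU020206 in NeuN+ wells at 24 h was called only by DESeq2 (log2 2.68) and without the filter (2.51). Gm12216 in NeuN- wells at 6 h was at 7.34 in log2 fold change, 6.68 by DESeq2 and 5.57 with saline wells of all time points. Clustering at resolutions 0.5 and 2 left each count of members past 2-fold as it was. No paired analysis was possible because well numbers are in deposit order and carry no animal. Low counts limit AU020206, Adap2os and, in saline NeuN- wells, Gm12216.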
